A study of Mus musculus with 2 samples.

Results

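The Clcn5 intronic cluster comprises 5 microRNA (miRNA) genes, Mir532, Mir188, Mir362, Mir501 and Mir500, which lie on 1 strand within a single intron of Clcn5 on the mouse X chromosome. They were taken by gene symbol from a table of 1973 miRNA gene rows, and these 5 were the only rows of that table inside Clcn5. That rule used no measured level. The samples were 2 small RNA libraries (molecules below 30 nt) of whole forebrain from healthy B6NCrl mouse embryos at day 15.5, with males and females pooled. Replicate 1 was made from the forebrains of 78 embryos and replicate 2 from those of 62 embryos. Both carried no labelled mutation or treatment, so there was 1 group and no contrast between conditions. The questions that the data can answer are how abundant each gene of the cluster was, how the genes were ordered, and how far the pools differed.

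A miRNA gene is transcribed as part of a longer RNA, from which Drosha cuts a hairpin and Dicer then cuts a short duplex. One strand of the duplex, from the 5' (5p) or the 3' (3p) arm of the hairpin, is loaded into an Argonaute protein and directs it to messenger RNAs that pair with the seed, bases 2 to 8. Clcn5 encodes a chloride and proton exchanger of endosomes, known mainly from kidney tubule cells, and the human CLCN5 gene also holds a row of related miRNA genes. Among the products of the cluster, miR-188 has been described in rat hippocampal neurons as a repressor of the semaphorin receptor subunit neuropilin-2, and miR-501-3p as a repressor of the glutamate receptor subunit GluA1 in dendrites.

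The mature sequences show how the products of the cluster relate to each other. They are RefSeq sequences of build GRCm38.p6, written 5' to 3' with the seed in capitals, and all 5 genes matched the table. Mir532 gives miR-532-5p and miR-532-3p. The first 3 lines come from the upstream pair of genes, Mir532 and Mir188, and the other 6 from the downstream genes Mir362, Mir501 and Mir500.
miR-532-3p: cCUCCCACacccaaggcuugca
miR-188-5p: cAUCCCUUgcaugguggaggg
miR-188-3p: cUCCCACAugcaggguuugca
miR-362-5p: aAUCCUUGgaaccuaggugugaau
miR-501-5p: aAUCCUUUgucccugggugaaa
miR-500-5p: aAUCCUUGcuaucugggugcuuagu
miR-362-3p: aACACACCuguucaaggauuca
miR-501-3p: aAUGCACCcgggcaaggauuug
miR-500-3p: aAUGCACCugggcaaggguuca

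The 3 downstream genes resembled each other in both arms. miR-501-3p and miR-500-3p had the seed AUGCACC in common and were identical at 18 of 22 bases, with the substitutions C9U, A18G, U21C and G22A (base of miR-501-3p, position from its 5' end, base of miR-500-3p). miR-362-3p matched miR-500-3p at 17 of 22 bases and miR-501-3p at 15 of 22, but its seed was ACACACC. On the other arm, miR-362-5p and miR-500-5p had the seed AUCCUUG in common, while miR-501-5p had AUCCUUU. Among the 9 sequences printed, the 3 of the upstream pair had no seed in common with the 6 of the downstream genes. Within the pair, an 8-base run began at base 2 of miR-532-3p and at base 1 of miR-188-3p, so that the seeds CUCCCAC and UCCCACA were the same letters shifted by 1 base.

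Outside the locus, 2 mature miRNAs in the RefSeq table carried a seed of these 9 sequences. One was miR-329-3p, from the imprinted miRNA cluster of chromosome 12, which has the seed of miR-362-3p.
miR-362-3p: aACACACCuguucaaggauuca
miR-329-3p: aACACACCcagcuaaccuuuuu
Its gene Mir329 had 355 counts in replicate 1 and 396 in replicate 2, a mean of 81.4 ± 2.69 CPM (SD, n = 2 libraries), against 71.4 ± 10.3 CPM for Mir362. The means thus differed by less than the SD of Mir362, but Mir329 was higher in both libraries. It stood at 79.5 against 64.1 CPM in replicate 1 and at 83.3 against 78.7 CPM in replicate 2. The counts do not tell which arm was present. The other was miR-7061-3p, with the seed of miR-188-5p, whose gene had no matched row.

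Because miR-501-3p and miR-500-3p are so alike, their precursor hairpins were set side by side, with the mature arms in capitals.
Mir501: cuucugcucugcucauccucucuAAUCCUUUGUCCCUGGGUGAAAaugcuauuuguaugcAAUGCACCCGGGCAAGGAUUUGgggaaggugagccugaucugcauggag
Mir500: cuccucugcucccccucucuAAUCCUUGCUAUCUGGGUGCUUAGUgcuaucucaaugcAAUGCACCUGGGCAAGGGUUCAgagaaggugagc
No run of 18 bases of the 9 mature sequences printed recurred in another RefSeq mouse hairpin, Mir501 and Mir500 included. The files list multi-mapping reads in a row apart from the genes, and the labels and headers state no rule for that row. How reads that match more than 1 gene were counted is therefore unknown. Reads of 18 bases or more from these mature arms cannot match both Mir501 and Mir500 exactly. Shorter reads, or reads placed with mismatches, could, and the levels of Mir501 and Mir500 are uncertain to that extent.

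On build mm10 the cluster spans 10815 bases of chromosome X on the minus strand, so its genes are met in the order Mir532, Mir188, Mir362, Mir501 and Mir500 along a transcript. Mir532 lies at 7248402 to 7248497 and Mir188 at 7247989 to 7248056, separated by 345 bases. After a gap of 5942 bases comes Mir362 at 7241982 to 7242046, then Mir501, 630 bases on, at 7241243 to 7241351. Mir500 lies 3468 bases further, at 7237683 to 7237774. All 5 were intronic in the same 103648-base intron in the 3 of 5 annotated Clcn5 transcripts that span them, and none overlapped an exon. The nearest exons were 68161 bases upstream of Mir532 and 24672 bases downstream of Mir500.

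Replicate 1 held 11743597 reads and replicate 2 held 13074292, of which 4464927 and 4753555 were counted on the sense strand of a miRNA gene. Levels are given as CPM, the count per 1000000 of those sense counts. Each read is a whole small RNA, so counts were not divided by gene length. Multi-mapping reads made up 44.6% of replicate 1 and 42.4% of replicate 2. Of the 9 forebrain and neuron marker genes with a row, 6 were detected, led by Mir137, with summed levels of 18693 CPM (replicate 1) and 18376 CPM (replicate 2). The 3 Mir124a genes and Mir9-2 were at 3.58 CPM or less. In the same list, Mir9-3 had a mean of 733 CPM, Mir128-1 of 2002 CPM and Mir128-2 of 1152 CPM. All of these genes have close copies elsewhere, and an effect of the copies on the counts was not tested. Markers of posterior body levels summed to 327 and 418 CPM in replicates 1 and 2, and the liver marker Mir122 stood at 65.6 and 88.6 CPM.

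All 5 genes of the cluster reached 10 sense counts in both libraries, the minimum used for detection, against 18.8% of all gene rows. Together they gave 17490 counts in replicate 1, or 3917 CPM (Clopper-Pearson 95% interval 3859 to 3976), and 19245 counts in replicate 2, or 4049 CPM (3992 to 4106). The mean was 3983 ± 92.9 CPM (SD, n = 2), which is 0.398% of the sense counts. Reads carried no molecular identifiers and are not independent molecules, so all intervals and limits cover counting error only. In a bulk library, fewer cells with a miRNA and less of it per cell cannot be told apart.

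Mir532, the first gene of the cluster, was the most abundant. It had 8327 counts in replicate 1 and 8914 in replicate 2, or 1865 CPM (interval 1825 to 1905) and 1875 CPM (1837 to 1915), with a mean of 1870.1 ± 7.25 CPM (SD, n = 2). It ranked 69 among all gene rows and stood above 81.4% of detected genes. Both libraries gave the same level within counting error.

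Mir188, next to it, had 5722 counts in replicate 1 and 6174 in replicate 2, or 1282 CPM (interval 1249 to 1315) and 1299 CPM (1267 to 1332), with a mean of 1290.2 ± 12.2 CPM (SD, n = 2). It ranked 78 among all rows. Mir532 exceeded Mir188 by 1.46-fold in replicate 1 (interval 1.41 to 1.51) and by 1.44-fold in replicate 2 (1.40 to 1.49). The pair held 80.3% of the counts of the cluster in replicate 1 and 78.4% in replicate 2.

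Mir362 was the least abundant member. It had 286 counts in replicate 1 and 374 in replicate 2, or 64.1 CPM (interval 56.8 to 71.9) and 78.7 CPM (70.9 to 87.1), with a mean of 71.4 ± 10.3 CPM (SD, n = 2). It ranked 213 among all rows and stood above 42.4% of detected genes. Its share of the counts of the cluster was 1.64% in replicate 1 and 1.94% in replicate 2.

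Mir501 lies 630 bases from Mir362, and its level was 8.35 times as high by the ratio of means. It had 2478 counts in replicate 1 and 3024 in replicate 2, or 555 CPM (interval 533 to 577) and 636 CPM (614 to 659), with a mean of 596 ± 57.4 CPM (SD, n = 2). The ratio of Mir501 to Mir362 was 8.66 in replicate 1 (interval 7.66 to 9.83) and 8.09 in replicate 2 (7.26 to 9.03). Close neighbours within the intron therefore differed by a factor far outside the spread of either gene.

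Mir500, the last gene, had 677 counts in replicate 1 and 759 in replicate 2, or 152 CPM (interval 140.4 to 163) and 159.7 CPM (149 to 171), with a mean of 156 ± 5.69 CPM (SD, n = 2). Its product miR-500-3p has the seed of miR-501-3p, yet the gene stood lower than Mir501 by 3.66-fold in replicate 1 (interval 3.36 to 3.99) and 3.98-fold in replicate 2 (3.68 to 4.32). Of the sense counts of the cluster, Mir501 held 14.2% in replicate 1 and 15.7% in replicate 2, and Mir500 held 3.87% and 3.94%.

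**Figure D1:**
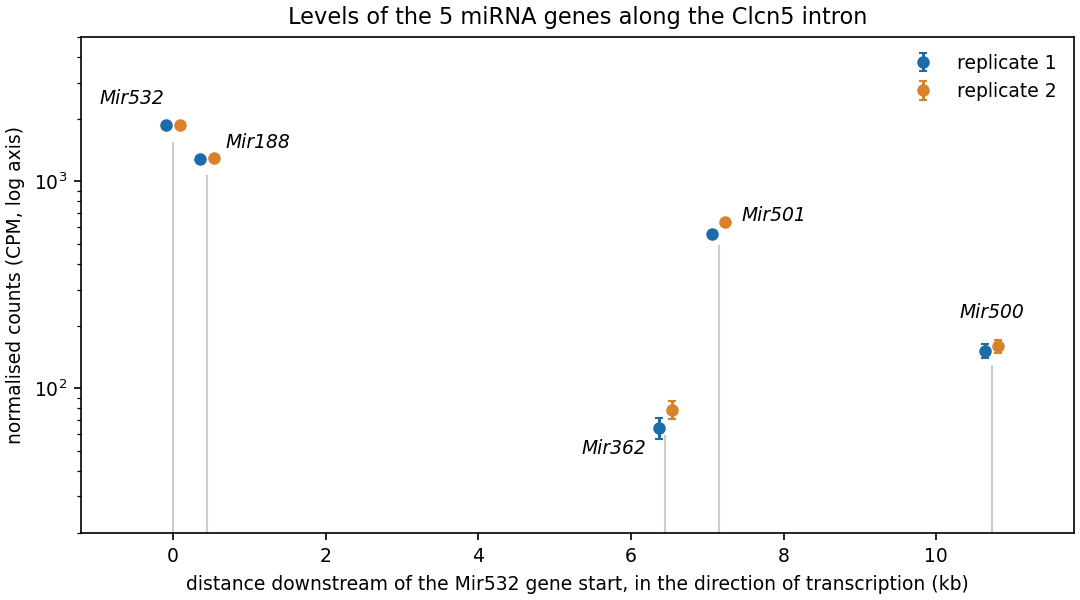
Normalised counts (CPM, log axis) of the 5 genes in each library against their distance downstream of the start of Mir532 (kb); points are single libraries and bars are Clopper-Pearson 95% intervals of the counts. The upstream pair sits between 1282 and 1875 CPM, while Mir362 at 64.1 and 78.7 CPM lies next to Mir501 at 555 and 636 CPM.

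The order by level was Mir532, Mir188, Mir501, Mir500 and Mir362 in both libraries. In each of the 4 neighbouring pairs of that order the means differed by more than the larger SD of the pair. The difference was 579.9 CPM between Mir532 and Mir188, 695 CPM between Mir188 and Mir501, 439.9 CPM between Mir501 and Mir500 and 84.3 CPM between Mir500 and Mir362. The largest SD among the members was 57.4 CPM, for Mir501. From Mir532 to Mir362 the level spanned 26.2-fold by the ratio of means. Distance along the transcript did not order the genes, since Mir362 lies upstream of Mir501 and Mir500 and was below both.

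**Figure D2:**
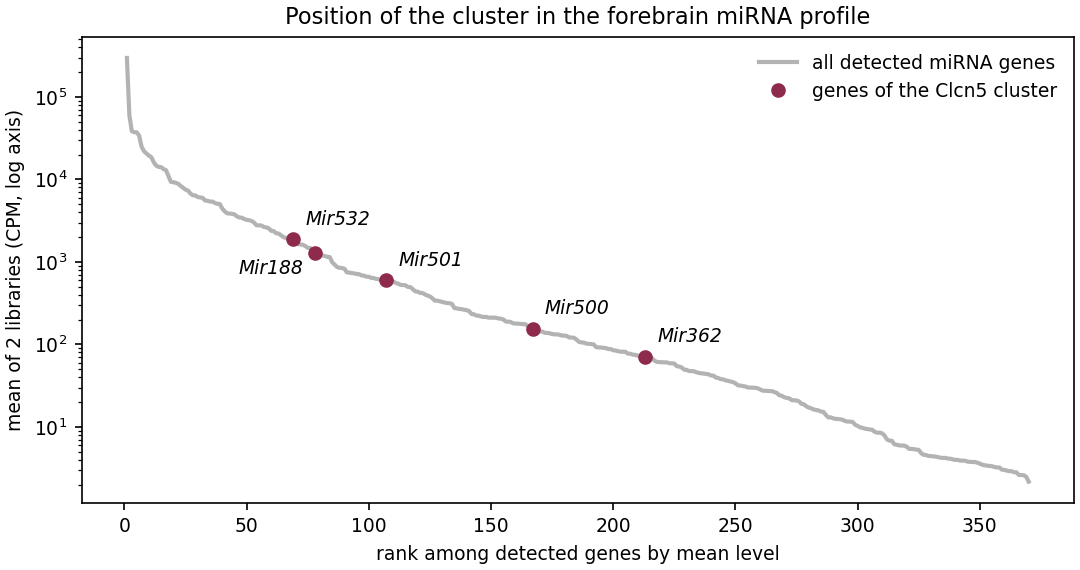
Mean level of 2 libraries (CPM, log axis) of all 370 detected miRNA genes against their rank, with the 5 genes of the cluster marked. Mir532, at rank 69, and Mir362, at rank 213, mark the ends of the cluster.

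The hairpins were then described by length, base composition and predicted fold. They measured 96 bases for Mir532, 68 for Mir188, 65 for Mir362, 109 for Mir501 and 92 for Mir500. The GC content of Mir362 was 46.2%, that of Mir188 was 55.9% and the others lay between, while the median of the 319 detected genes with a RefSeq hairpin was 50.5%. The folding energy predicted by RNAfold was -0.35 kcal/mol per base for Mir532, -0.42 for Mir188, -0.44 for Mir362, -0.43 for Mir501 and -0.46 for Mir500, against a median of -0.43 over the same 319 genes. From the weakest to the strongest predicted fold per base the genes ran Mir532, Mir188, Mir501, Mir362 and Mir500. That is the order by level but for the last pair. By the energy of the whole hairpin the order was another and did not follow the levels. It ran Mir362 (-28.5 kcal/mol), Mir188 (-28.8), Mir532 (-33.2), Mir500 (-41.9) and Mir501 (-46.9). With 5 genes this describes predicted structures and was not tested.

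No read of either library was counted on the strand opposite to any of the 5 genes. With 17490 and 19245 sense counts in replicates 1 and 2, a count of 0 allows an opposite-strand share of up to 0.0172% and 0.0156%. Among the detected genes, 332 of 370 (89.7%) likewise had no opposite-strand count in either library. All reads of the members were thus counted in 1 direction, taken here as sense.

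The libraries were then compared gene by gene, with ratios given as log2 of replicate 1 over replicate 2. The test was an exact binomial test on the counts of 457 genes, two-sided, with Benjamini-Hochberg adjustment over all of them. It compares these 2 libraries and not conditions, and with 1 library on each side no difference has a replicate check. Mir501 was called lower in replicate 1, at a log2 ratio of -0.20 (interval -0.27 to -0.12; exact binomial test, adjusted p = 2.23e-06). Mir362 was also called lower there, at a log2 ratio of -0.30 (interval -0.52 to -0.071; exact binomial test, adjusted p = 0.0265), but with TMM scaling this call was lost (-0.26, adjusted p = 0.0626 in a range of 0.00529 to 0.0626 over the settings tried). The other 3 genes did not pass the test. Their log2 ratios were -0.0079 for Mir532 (interval -0.051 to 0.035), -0.019 for Mir188 (-0.071 to 0.033) and -0.074 for Mir500 (-0.23 to 0.077), with adjusted p by the exact binomial test of 0.855, 0.651 and 0.504.

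Of the 5 members, 2 were thus called, both lower in replicate 1. Of all genes tested, 36.3% were called, 17.1% as higher and 19.3% as lower in replicate 1, so the share of called members was close to the background. All 5 ratios were below 0, as were those of 56.5% of the detected genes. The median log2 ratio was -0.074 for the members and -0.046 for the detected genes, and the median absolute ratio was 0.074 and 0.19. With TMM or DESeq2 scaling the ratios of Mir532 and Mir188 turned positive, at 0.032 and 0.021 with TMM and 0.019 and 0.0080 with DESeq2, so no direction can be given for these genes. With the most abundant gene left out of the total, both were called lower in replicate 1, at -0.068 and -0.079 (adjusted p by the exact binomial test 0.00685 and 0.00878 in ranges of 0.00685 to 0.855 and 0.00878 to 0.874).

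**Figure D3:**
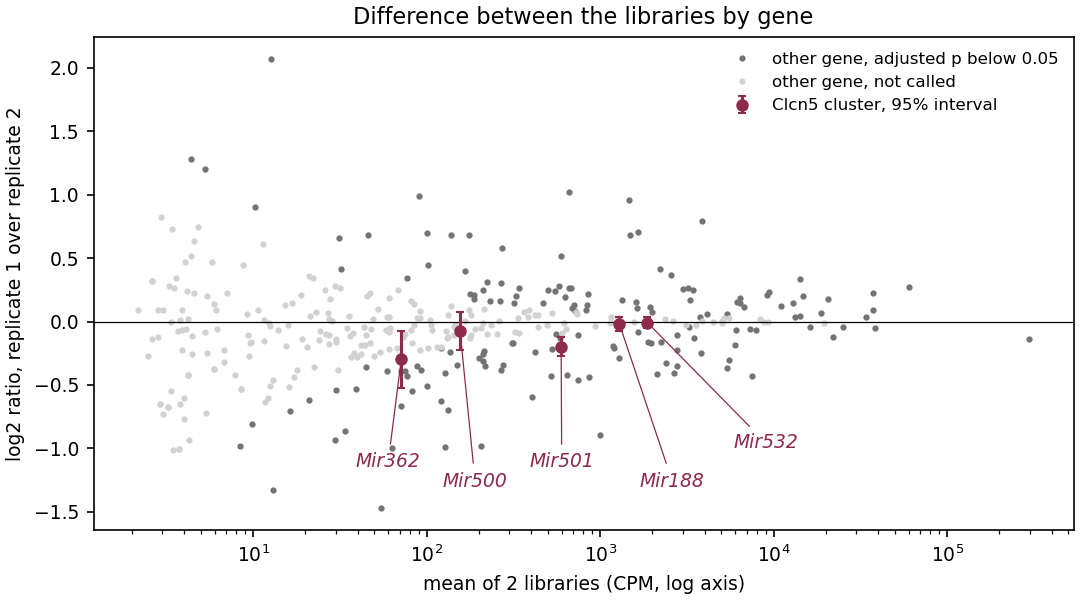
Log2 ratio of replicate 1 over replicate 2 against the mean level (CPM, log axis) for all 370 detected genes; dark points passed the exact binomial test between the libraries, pale points did not, and bars on the members are 95% intervals of the counts. Mir532 and Mir188 lie at -0.0079 and -0.019, and Mir501 and Mir362 at -0.20 and -0.30.

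At higher counts the exact binomial test can call smaller differences. A larger share of genes was called at higher counts. Among other detected genes with a total count within 2-fold of that of Mir532, 30 of 38 (78.9%) were called, and within 2-fold of that of Mir188, 32 of 40 (80%). Neither member was called. Around Mir362 the share was 26 of 76 (34.2%), around Mir501 33 of 52 (63.5%) and around Mir500 35 of 71 (49.3%). This window was not fixed in advance and the shares are a description. The coefficient of variation between the libraries was 0.387% for Mir532, 0.947% for Mir188, 3.65% for Mir500, 9.64% for Mir501 and 14.5% for Mir362, while the edgeR estimate common to 370 genes was 15.02%. The first includes counting error and the edgeR estimate does not. In absolute log2 ratio, Mir362 exceeded 68.6% of detected genes and Mir501 exceeded 51.1%. Among the other genes within 2-fold of their counts, the median absolute log2 ratio was 0.20 around Mir362 and 0.13 around Mir501, in each case below that of the member itself. It was 0.17 around Mir532, 0.16 around Mir188 and 0.18 around Mir500, in each case above that of the member.

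Ratios between members do not depend on the scaling of a library. The ratio of Mir188 to Mir501 was 2.31 in replicate 1 (interval 2.20 to 2.42) and 2.04 in replicate 2 (1.95 to 2.13), so the intervals did not overlap. The ratio of Mir532 to Mir188 did not differ beyond its counting intervals. The ratio of Mir500 to Mir362 was 2.37 in replicate 1 (interval 2.06 to 2.73) and 2.03 in replicate 2 (1.79 to 2.30), with overlapping intervals. The composition of the cluster thus shifted slightly between pools. In percentage points, replicate 1 minus replicate 2, the share of Mir501 moved most (-1.55), followed by that of Mir532 (1.29). Mir501 held 14.2% of the counts of the cluster in replicate 1 and 15.7% in replicate 2. Mir532 held 47.6% and 46.3%. Mir500 held 3.87% and 3.94% in these replicates, and Mir362 held 1.64% and 1.94%. Together the 3 downstream genes held 19.7% and 21.6%.

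Markers of other cell types differed between the pools as well. Both choroid plexus and pigment epithelium markers were called higher in replicate 1 (sum 1829 against 1142 CPM in replicate 2). Of the 6 mesenchyme and mural cell markers with a row, 3 were called lower in replicate 1 and none higher, with sums of 5997 and 6764 CPM in replicates 1 and 2. The endothelial marker Mir126a stood at 15856 against 16377 CPM and was called lower, but its log2 ratio of -0.047 equalled the median of all tested genes, and with TMM scaling the call was lost (-0.0065, exact binomial test, adjusted p = 0.573 in a range of 1.22e-44 to 0.573). Of the 5 muscle markers with a row, Mir1a-1, Mir133a-1 and Mir133a-2 were at 0 in both libraries, and 1 was called higher in replicate 1, with sums of 21.1 and 5.26 CPM. Mir1a-1, Mir133a-1 and Mir133a-2 have close copies, and how reads that match copies were counted is unknown. Their level of 0 therefore does not show absence. All 3 erythroid markers were detected, and 1 was called lower (sum 139.5 against 165 CPM), a call absent with TMM or DESeq2 scaling. The 3 immune markers summed to 197 and 207 CPM in replicates 1 and 2, with 1 called higher and 1 lower in replicate 1. The 6 sensory and epithelial markers summed to 847 and 762 CPM, with 3 called higher and 1 lower. Mir122 and 2 of the 5 posterior markers were called lower in replicate 1, and the forebrain list had 2 genes called each way, or 4 higher and 2 lower with TMM scaling. The part of these cell types in the differences of Mir501 and Mir362 was not tested.

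On the X chromosome, the 5 genes held 9.35% of all sense counts in replicate 1 and 10.2% in replicate 2, among 40 detected genes of 120 rows. Mir532 ranked 6, Mir188 8, Mir501 11, Mir500 23 and Mir362 31 among the miRNA genes of that chromosome. Its summed level was set beside those of 3 other X-linked loci, chosen by name. The cluster from Mir322 to Mir503, whose products include members of the miR-15/16 seed family, summed to 15027 ± 57.7 CPM (SD, n = 2), 3.77 times the sum of the Clcn5 genes. The Clcn5 genes in turn summed to 2.28 times the miRNA genes inside Htr2c, a serotonin receptor gene (1746 ± 768 CPM) and to 4.46 times the Mir106a-363 cluster, a paralog of Mir17-92 (894 ± 59.4 CPM).

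The 26.2-fold range of the Clcn5 genes compares with 90.4-fold from Mir106a to Mir19b-2, 1231-fold from Mir1298 to Mir764 and 8076-fold from Mir322 to Mir450-2. Mir764 and Mir450-2 were below the minimum for detection, and among detected genes alone the range was 499-fold below Mir1298 and 3005-fold below Mir322. Of the X-linked pairs of detected neighbours, Mir98 with Mirlet7f-2 (1.85-fold, sum 9426 CPM), Mir374b with Mir421 (1.57-fold), Mir221 with Mir222 (1.70-fold) and Mir224 with Mir452 (2.06-fold) had narrower ranges than the Clcn5 genes. Mir19b-2 and the Mir450 genes have close copies. How reads that match such copies were counted is unknown, so the levels of these genes are uncertain. Across the genome, detected genes with neighbours within 10 kb on the same strand formed 43 clusters. The Clcn5 cluster ranked 21 of 43 by summed level and 22 by fold range, at the median of 26.2-fold. Of the 9 clusters with at least 4 detected genes, 7 had a wider range than the Clcn5 cluster. These ranks describe 2 libraries and were not tested.

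The sums of the loci moved differently between the pools. The Htr2c genes summed to 2289 CPM (replicate 1) and 1202 CPM (replicate 2), a log2 ratio of 0.93, and 3 of its 5 tested genes were called, all higher in replicate 1. The sum of the Clcn5 genes had a log2 ratio of -0.048, against 0.0078 for the cluster of Mir322 and -0.14 for the Mir106a-363 cluster. Whether these ratios differ from each other was not tested.

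**Figure D4:**
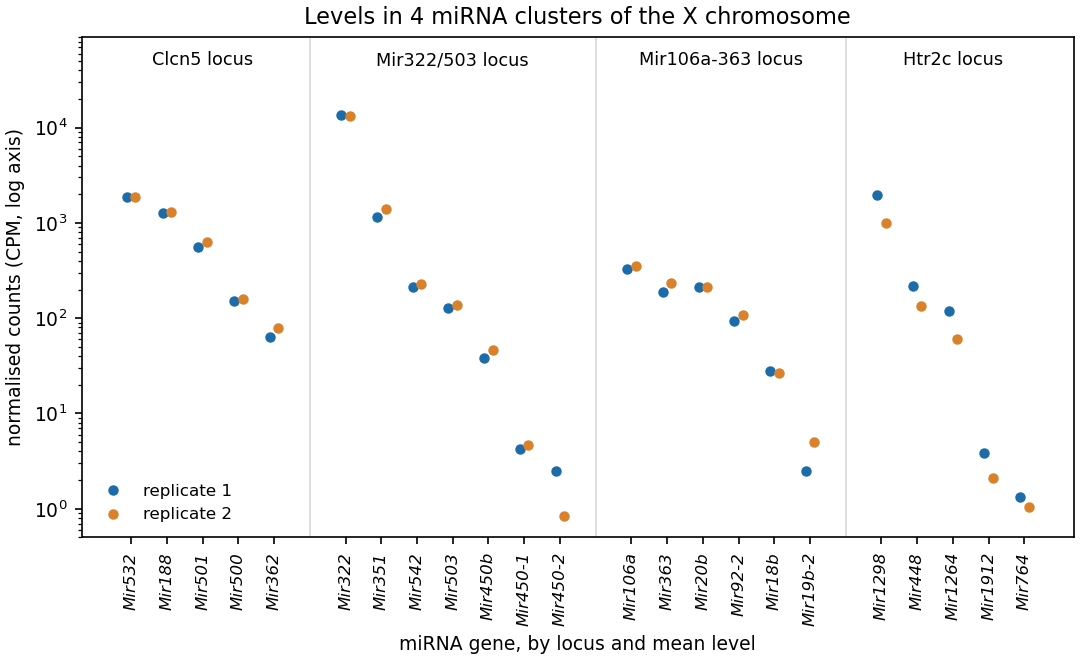
Normalised counts (CPM, log axis) of each gene with a row in 4 X-linked miRNA clusters, ordered by mean level within a locus; points are single libraries. The Clcn5 genes run from 1870.1 to 71.4 CPM, with nearly coinciding points for Mir532, Mir188 and Mir500. Mir501 (555 and 636 CPM) and Mir362 (64.1 and 78.7 CPM) differ more between replicates 1 and 2. Of the Htr2c genes, Mir1298, Mir1264 and Mir448 are spaced apart and were called higher in replicate 1, while Mir764 and Mir1912 were not called.

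For each member, the detected gene outside the locus with the most similar levels was found by Euclidean distance in log2(CPM + 1) over the 2 libraries, among 365 genes. These were Mir298 for Mir532 (distance 0.11), Mir434 for Mir188 (0.049), Mir877 for Mir362 (0.047), Mir25 for Mir501 (0.035) and Mir148b for Mir500 (0.13). Mir298, of the imprinted Gnas region on chromosome 2, stood at 1773 CPM in replicate 1 and 1982 CPM in replicate 2, and Mir25, a relative of Mir92a on chromosome 5, at 564 and 648 CPM. With 2 libraries the measure reflects the level and a single difference, and it ties no gene to the cluster.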

How the data were processed

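Small RNA from 2 pools of embryonic forebrain was analysed as 1 group. Each deposited file held whole-number counts per miRNA gene, made by the authors without normalization; per the deposited README text they derive from alignments to mm10 with annotation M4. Not given in the sources used here are the aligner, the counter, the multi-mapping rule and any litter or day that the pools shared. The p-values set a difference against counting error only. The 4 rows that name no gene (unmapped 14.3% and 18.2%, multi-mapping 44.6% and 42.4%, no feature 3.03% and 3.07%, ambiguous 0 in replicates 1 and 2) stayed out of library sizes and tests. The third column was used as sense counts; no header names its strand, but over all gene rows the other strand column held 1.59% and 1.49% of the counts of both strands in replicates 1 and 2.

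Symbols and coordinates came from GENCODE M21 (same build), which matched 1894 of 1973 identifiers; sequences came from RefSeq GRCm38.p6. CPM was 1000000 times the sense count over its sum across gene rows. Genes with at least 10 counts in total were tested by an exact binomial test against the libraries' shares of sense counts, with Benjamini-Hochberg adjustment at 0.05 across all genes, and checked on simulated data. Log2 ratios had 0.5 counts added. Intervals were Clopper-Pearson at 95%, and a count of 0 was limited by 3 counts. No quasi-likelihood test was run, since 1 group has no contrast; edgeR 4.0.16 gave TMM factors and the common dispersion, DESeq2 1.42.0 size factors, RNAfold 2.7.2 folding energies, and scipy 1.17.1 the tests.

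Named genes were the 5 members, seed-sharing genes, the 1 detected gene nearest in level to each member, and the ends of 3 other X-linked clusters. Members and lists were chosen with earlier results of these data known. Alternatives were DESeq2 and TMM scaling, leaving the most abundant gene out of the total, counts on either strand, a total over placed reads, other count minimums, 5 counts added and leaving out each replicate. Marker calls under these scalings were added after seeing the data.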

Additional observations from a re-analysis of the deposited data

How the results depend on the processing

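The order of the 5 members was the same in each library. The scalings and the either-strand counts could not change that order. A scaling moves all genes of a library by 1 factor, and no opposite-strand reads were counted for the members. Their summed level of 3983 CPM stood between 3917 and 4049 CPM with a replicate left out, and was 5668 CPM with the most abundant gene left out of the total and 1769 per 1000000 placed reads. Changes of the total move every gene by the same factor within a library. The number of members called between the libraries was 2 as reported, 1 with TMM scaling (Mir501) and 4 with the most abundant gene left out of the total. It was 2 with DESeq2 scaling, with either-strand counts and with minimums of 1 or 100 counts in total. Over all tested genes, 166 of 457 were called as reported and 168 of 457 with TMM scaling. With the most abundant gene left out of the total, 181 of 457 were called. The calls were 167 of 457 with DESeq2 scaling and 167 of 468 with either-strand counts. With minimums of 1 and 100 counts they were 156 of 724 and 158 of 298. Mir501 was called under every setting tried and Mir500 under none. Of these settings, adding 5 counts altered the log2 ratios only and could not change a call. With either-strand counts the counts of the members stayed the same, and only the totals and the set of tested genes changed. The cause of the lost call of Mir362 with TMM was not tested; its counts, 286 and 374, are the lowest of the members. Over all genes, the share of calls that were lower in replicate 1 was 53.0%, against 42.9% with TMM scaling and 69.1% with the most abundant gene left out, and the median log2 ratio of tested genes was -0.047, -0.0065 and -0.11 under these 3 settings. Between 156 and 181 genes were called under the settings tried. No paired analysis was possible because the study has 1 group.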
